A study of Mus musculus with 8 samples.

Results

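The 50 nuclear genes described here encode subunits of the mitochondrial respiratory chain. They comprise 27 genes of complex I, 4 of complex II, 7 of complex III, 11 of complex IV and the gene of cytochrome c, and they were taken by symbol from a list of complex I to IV genes among the 32285 genes that the count matrices name, each symbol matching once. Ndufa4 was counted with complex IV, since its product is now known as a subunit of that enzyme. Other subunits of the same complexes, the tissue isoforms and complex V were not on the list and were counted as lists of their own.

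The cells came from digested left femurs and tibias of mice, labelled as periosteum, the sheath that covers bone. Droplet-based single-cell RNA sequencing (scRNA-Seq) was used, which tags every captured RNA molecule with a cell barcode and a unique molecular identifier (UMI), and UMIs rather than reads were counted. All animals were C57BL/6J males aged 16 weeks, fed normal diet chow (ND) or a high-fat diet (HFD), with 4 samples labelled per diet. The deposited counts hold 1 matrix per diet with no map from barcodes to mice, so each diet was 1 library, no test between diets was possible, and every interval below is an exact 95% interval that covers counting error only.

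Barcodes were kept if over 500 genes but below 8000 were detected and mt- genes took less than 20% of UMIs, after which 6029 of 6314 ND barcodes and 6224 of 6636 HFD barcodes remained, with 48106513 and 49411888 UMIs. The median depth was 4610 UMIs per cell in ND and 4823.5 in HFD, and 14 kept barcodes occurred in both libraries. Clusters, made without the 50 members and without mitochondrial genes, gave 15 named classes, and the median depth per class ran from 3219 UMIs (mature neutrophil-like, ND) to 35362.5 (neutrophil precursor-like, ND). Blood lineages made up most of the cells, while mesenchymal-like cells, which carried Col1a1, Dcn and Prg4, numbered 409 in ND and 674 in HFD. Unnamed clusters held 269 ND and 246 HFD cells. The HFD library was lower in the list of dissociation response genes, immediate-early and heat shock genes such as Jun and Fos, with 8486 UMIs per 1000000 UMIs (UPM) against 12640 in ND and 14 of 14 genes lower, and any part of this in the results below was not tested.

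Oxidative phosphorylation passes electrons from NADH (complex I) or succinate (complex II) through complex III and cytochrome c to oxygen at complex IV, and the protons pumped on the way drive ATP synthesis by complex V. The chain is built from the products of 2 genomes: the mitochondrial DNA (genes with the prefix mt-) encodes the core membrane subunits of complexes I, III, IV and V, and the nucleus encodes all the others, including all of complex II. Nuclear members differ in role, since some carry the redox centres (Ndufv1, Ndufs1, Sdhb, Uqcrfs1, Cyc1) and others are accessory subunits that serve assembly and stability. Mature neutrophils are known to rely on glycolysis and to hold few mitochondria.

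Promoters of such genes are known for sites of the factors NRF1, GABP (an ETS factor), YY1 and the ERR receptors. Promoter windows from RefSeq (GRCm38.p6, the build that corresponds to mm10 of the counts, 250 bases before to 50 after the start) were found for 40 of the 50 members. Letters of at least 1 of the 4 motifs, searched on both strands, were in 29 of the 40 members' windows (72.5%), against 25.2% of 27025 genes. GCGCANGCG (NRF1) was in 30.0% of members and 7.03% of all genes, CCGGAAG (ETS) in 25% and 9.93%, GCCATNTT (YY1) in 27.5% and 6.96%, and AAGGTCA (ERR) in 10.0% and 5.38%. A match of letters is a description and no site of binding. The 6 stretches below, of 30 bases each on the gene's strand with the motif in capitals, are from the 3 members with the lowest and the 3 with the highest mature neutrophil-like level relative to neutrophil precursor-like cells among the 18 members with a motif before the start, the difference that the results turn on.
Ndufa5 (NRF1, chr6:24527697-24527726, minus strand): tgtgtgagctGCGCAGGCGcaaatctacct
Ndufb2 (ERR, chr6:39592373-39592402, plus strand): ggagcagcagtAAGGTCAgccaagagcacc
Ndufb5 (YY1, chr3:32736827-32736856, plus strand): tgcccttactaAACATGGCcgctcccacgg
Sdhd (NRF1, chr9:50603909-50603938, minus strand): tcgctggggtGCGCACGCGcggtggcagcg
Uqcrh (ETS, chr4:116075071-116075100, minus strand): actacgaggagtatgccgcaCTTCCGGcca
Ndufb7 (ETS, chr8:83566727-83566756, plus strand): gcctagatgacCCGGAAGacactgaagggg
Members of both kinds held motifs. The 40 members with a window were split into the 20 with the largest and the 20 with the smallest difference between these neutrophil classes. A motif was in the window of 13 (65.0%) of the former and 16 (80.0%) of the latter. In the same order NRF1 letters were in 5 and 7, ETS in 3 and 7, YY1 in 7 and 4 and ERR in 1 and 3.

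Over all kept ND cells the 50 members together gave 532530 UMIs, or 11070 UPM (interval 11040 to 11100). In a 3′ assay a molecule counts once whatever its length, so levels of different genes were compared as molecules, although capture may differ between genes. Complex IV contributed 5276 UPM, complex I 3774, complex III 1480, complex II 271.6 and Cycs, which encodes cytochrome c, 268.7. Small subunits of complex IV therefore led the list. Cox8a stood at 876.4 UPM in ND and 827.8 in HFD, Cox4i1 at 735.8 and 741.0, and Cox7c at 655.1 and 641.5. The lowest members were the catalytic-core gene Ndufs1 of complex I, at 19.96 UPM in ND and 22.08 in HFD, and Sdhc, a membrane anchor of complex II, at 29.56 and 32.08. The members lie on 18 chromosomes, and 3 of them (Ndufb2, Ndufb8 and Ndufb9) share exons on the same strand with another annotated gene (GENCODE vM21), so that their counts are uncertain.

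Levels of the members differed more between cell classes than between the 2 libraries. In ND the order ran from neutrophil precursor-like cells at 17360 UPM (17250 to 17470) to mature neutrophil-like cells at 5771 (5706 to 5836), a ratio of 3.01 and a log2 difference of 1.589 (1.57 to 1.608). The interval of erythroid-like cells (17090) overlapped those of both neutrophil precursor-like and pericyte-like cells (16750), while the latter 2 did not overlap each other. B cell precursor-like cells followed at 15870 and monocyte-like cells at 15150. Macrophage-like (13560) and dendritic-like cells (13340) overlapped each other, as did NK cell-like (11450), basophil/mast-like (11270) and endothelial-like cells (11270). Mesenchymal-like cells lay in the lower part of the order, at 10270 UPM, above T cell-like (9553) and mature B cell-like cells (9498), which overlapped. Immature neutrophil-like cells had 6863 UPM, so the neutrophil lineage held both ends of the order.

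The HFD library gave nearly the same order, with 17500 UPM in neutrophil precursor-like and 5507 in mature neutrophil-like cells. Its highest class was pericyte-like, at 20690 UPM (20320 to 21070). In this class 8 fixed markers were detected, but its leading genes were contractile ones (Tagln, Acta2, Myl9, Tpm2 and Myh11). Pericytes and vascular smooth muscle cells were not told apart in it. Which class stood first thus differed between the libraries, and pericyte-like cells were highest in ND too with every cell thinned to 1000 UMIs, with the cells of highest doublet score left out, or at a cluster resolution of 0.25. In ND the immature neutrophil-like class was lowest after thinning and as a mean over cells. In HFD the mature neutrophil-like class stood below the immature one by both, at 5836 against 6183 UPM thinned and 0.58% against 0.625% as a mean. Within classes the single cells spread widely. The members took 0.435% to 0.736% of a cell's UMIs (lower to upper quartile) in ND mature neutrophil-like cells and 1.41% to 1.99% in neutrophil precursor-like cells, ranges that did not meet. Erythroid-like cells came from a cluster of 32 ND and 26 HFD cells and a further one of 24 ND cells and 1 HFD cell. They were uneven, with a median cell at 1.474% in ND and 0.2858% in HFD. The latter lay below the 0.5431% of HFD mature neutrophil-like cells, although the summed level of the erythroid-like class was among the highest.

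**Figure D1:**
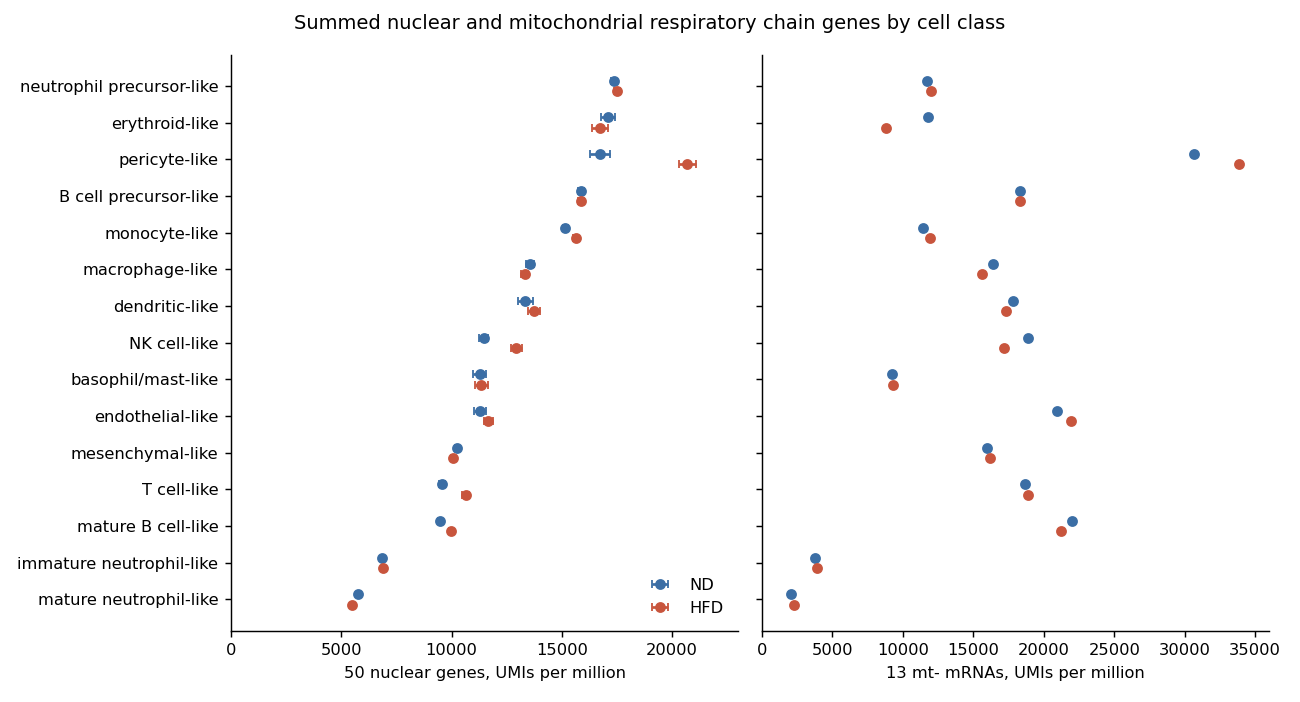
Summed level of the 50 nuclear members (left, UPM, UMIs per 1000000, bars are 95% counting intervals) and of the 13 mitochondrial mRNAs (right) in 15 named cell classes, ordered by the ND value of the members; ND is blue and HFD red. The left panel runs from 17360 to 5771 UPM in ND, while the right panel does not follow that order.

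The mt- genes did not follow the nuclear order. The 13 mt- mRNAs, which encode the mitochondrial partners of these subunits and 2 subunits of complex V, made up 1.21% of all ND UMIs. Their share was highest in pericyte-like cells (3.06%), next highest in mature B cell-like cells (2.20%) and lowest in mature neutrophil-like cells (0.207%). The number of mt- mRNAs per nuclear member UMI therefore ranged from 0.359 in mature neutrophil-like through 0.675 in neutrophil precursor-like and 1.56 in mesenchymal-like to 2.31 in mature B cell-like cells. Across 30 points (15 classes in 2 libraries, which share their depth and their naming) the Pearson correlation of the nuclear sum with the mt- mRNA sum was 0.675 and Spearman's rho 0.21. The unlike orders show in single classes: mature B cell-like cells had 9498 UPM of nuclear members, against 15150 in monocyte-like cells, but 2.20% against 1.15% of mt- mRNAs. Within complex I alone, ND cells had from 0.189 mt- UMIs per nuclear UMI in immature neutrophil-like to 1.34 in T cell-like cells.

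Some mitochondrial lists followed the members closely and others less so. Over the same 30 points the correlation with the summed members was 0.973 for the 18 nuclear subunits of complex V, 0.962 for the 10 other subunits of complex I, 0.952 for the 17 genes of the tricarboxylic acid cycle and 0.887 for 41 genes of the mitochondrial ribosome. It was 0.722 for 42 assembly factors, 0.708 (rho 0.493) for 16 genes of mitochondrial import, 0.688 (rho 0.347) for 16 regulators of mitochondrial genes and 0.21 for 10 genes of uncoupling and redox. Glycolysis did not track them, with a correlation of -0.16 over 17 genes, and in ND it stood at 5431 UPM in mature neutrophil-like, 6821 in neutrophil precursor-like and 1776 in mature B cell-like cells. The proliferation list gave 0.588 and the ribosomal protein genes 0.621. Each single member had its own correlation with the sum of the others, with a median over members of 0.884 against 0.201 for genes outside the lists with the sum of members. The latter genes needed at least 1000 UMIs and were not matched to the members for level. Cox6c (0.966) and Ndufb8 (0.959) were the closest to the rest, and Ndufa3 (0.252) and Sdhd (0.601) the farthest. The 10 genes outside the lists with the most similar pattern, of 7136 ranked, were Vdac1 (0.928), the main pore of the outer mitochondrial membrane, followed by Psmb4, Naa38, Eif1ax, Mpv17l2, Aarsd1, Dhrs4, Mrpl42, Eif3l and Polr2c (0.893).

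**Figure D2:**
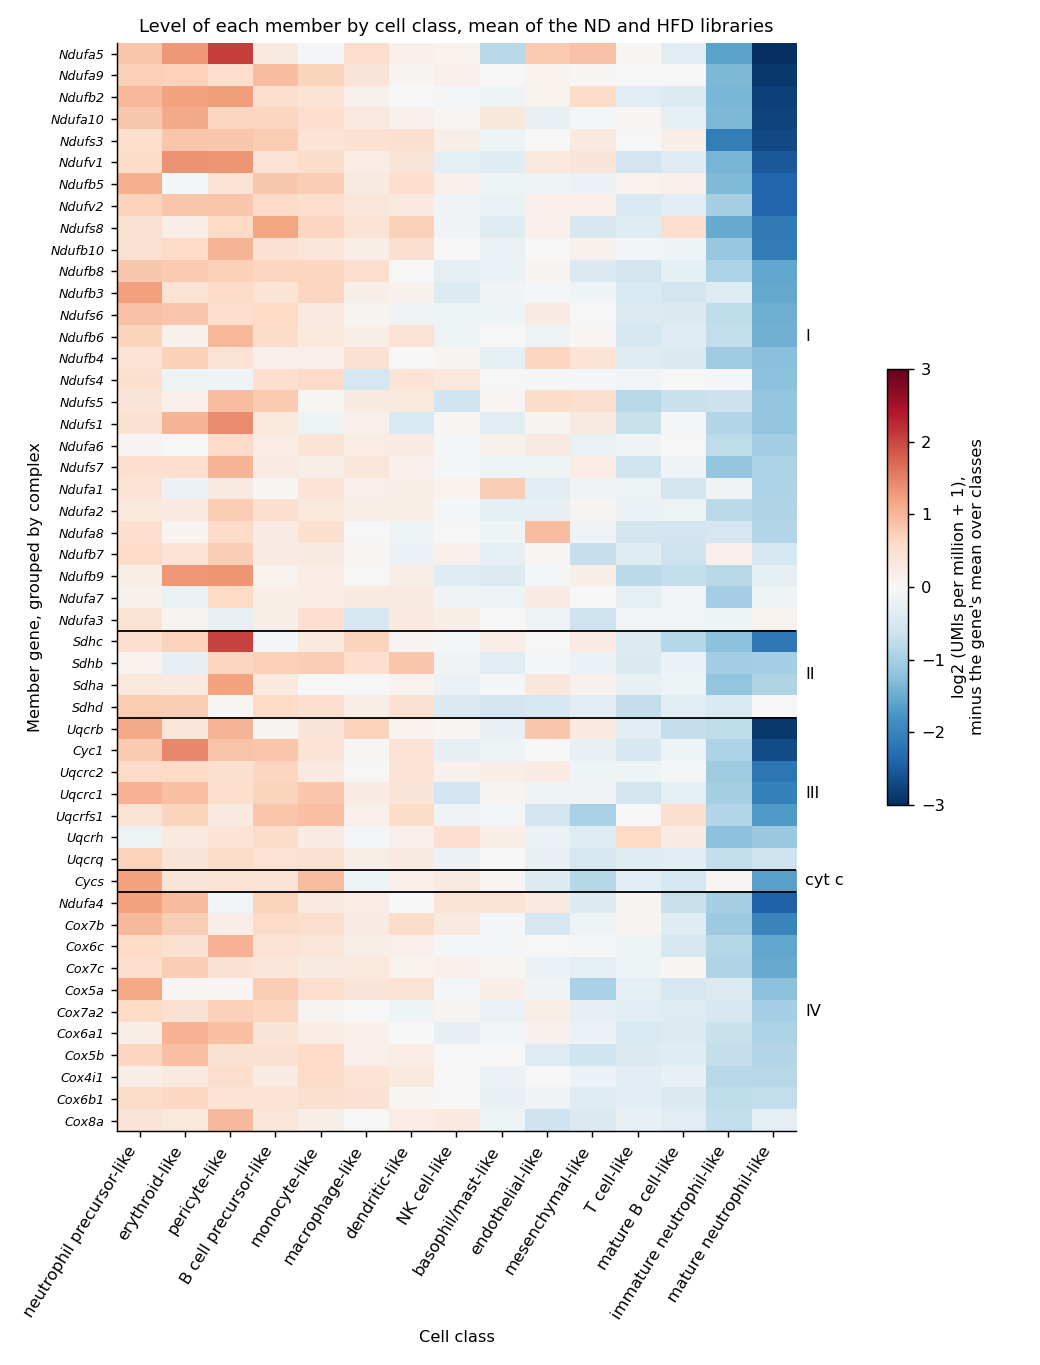
Each row is 1 member and each column 1 cell class; colour gives log2 (UPM + 1), averaged over the ND and HFD libraries, minus the gene's mean over classes, with the scale ending at 3 in either direction. Rows are grouped by complex and ordered within it by the mature neutrophil-like value, the column in which members of 1 complex differ most, from Ndufa5 to Ndufa3 in complex I.

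Between neutrophil precursor-like cells (Elane, Mpo, Prtn3) and mature neutrophil-like cells (Retnlg, Il1b, Csf3r) the members differed to unequal extents. In ND all 50 were lower in the mature class, where 62.6% of 6668 genes compared were lower, and 25 were at least 4-fold lower, against 32.6% of genes. The median log2 difference of the members was -2.03 and that of all genes compared -0.75. The genes compared, here and between the other classes, were not matched to the members for level. In HFD all 50 were again lower, against 3560 of 5855 genes compared, and 26 were at least 4-fold lower, against 1738 genes. The median of the members was -2.09 there and that of all genes compared -0.61. The 2 libraries ordered the members alike, with a correlation of 0.974 over 50 genes and a largest disagreement of 0.69 (log2, Ndufv1).

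Ndufa5, an accessory subunit of complex I, differed most. It had 169 UPM (926 UMIs) in ND neutrophil precursor-like cells and 5.38 UPM (28 UMIs) in mature neutrophil-like cells, a log2 difference of -4.95 (-5.57 to -4.43), and in HFD it had 181.5 and 3.87 UPM (643 and 20 UMIs). Within complex I the next were Ndufb2 (-3.96), Ndufa9 (-3.84), Ndufb5 (-3.69), Ndufv1 (-3.53), Ndufa10 (-3.43), Ndufv2 (-3.31) and Ndufs3 (-3.30). Ndufv1 and Ndufv2 carry the NADH-oxidising end of complex I, and Ndufs3 belongs to its peripheral arm. At the other end of the same complex stood Ndufa3, with 399.9 UPM in precursor-like and 347.7 UPM in mature cells (-0.20, -0.29 to -0.11), Ndufa7 (-0.21) and Ndufb9 (-0.53). These are accessory subunits, as is Ndufa5, so the accessory subunits covered the whole range.

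Complex II, whose 4 subunits are all nuclear, was divided in the same way. Sdhc had 47.1 UPM in ND neutrophil precursor-like and 5.57 UPM in mature cells (-3.06, -3.69 to -2.52), while its partner in the membrane anchor, Sdhd, had 131.2 and 80.1 UPM (-0.71, -0.89 to -0.54). The flavoprotein gene Sdha (-1.29) and the iron-sulphur gene Sdhb (-1.27) lay between them. Against immature neutrophil-like cells Sdhd was higher in the mature class in both libraries, by 0.45 (0.26 to 0.63) in ND and 0.47 (0.28 to 0.65) in HFD.

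In complex III, Uqcrb and Cyc1, the gene of cytochrome c1, stood lowest in the mature class. Uqcrb had 540.4 UPM in precursor-like and 34.6 UPM in mature cells (-3.96, -4.19 to -3.75), and Cyc1 164.9 and 14.02 UPM (-3.55). Uqcrc1 (-2.95), Uqcrc2 (-2.54) and Uqcrfs1, the Rieske iron-sulphur protein (-2.21), were intermediate, and the small subunits Uqcrq (-1.28) and Uqcrh (-0.98) differed least. Cycs had 560.9, 238.3 and 72.0 UPM in precursor-like, immature and mature cells, so that the larger part of its difference lay between immature and mature cells (-1.72, where the sum of all members differed by -0.25).

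In complex IV only Ndufa4, Cox7b, Cox5a and Cox6c were at least 4-fold lower. Ndufa4 had 879.8 UPM in precursor-like, 188 UPM in immature and 69.5 UPM in mature ND cells (-3.66, -3.82 to -3.51, between the first and the last). Cox8a, in contrast, had 1256 and 809.0 UPM in precursor-like and mature cells (-0.63, -0.69 to -0.58), and Cox4i1 934.5 and 449.1 UPM (-1.06). In the mature class Cox8a alone thus gave 809.0 of the 5771 UPM of the members. Relative to immature cells it was higher in the mature class by 0.49 (0.44 to 0.55) in ND and 0.45 (0.39 to 0.51) in HFD. Members above the immature level in both libraries also included Ndufa7 (0.94 and 0.84), Ndufb9 (0.41 and 0.66) and Ndufa3 (0.27 and 0.20). Below it were 38 of 50 members in ND, against 2897 of 6212 genes compared, and 40 of 50 in HFD, against 2916 of 6202.

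**Figure D3:**
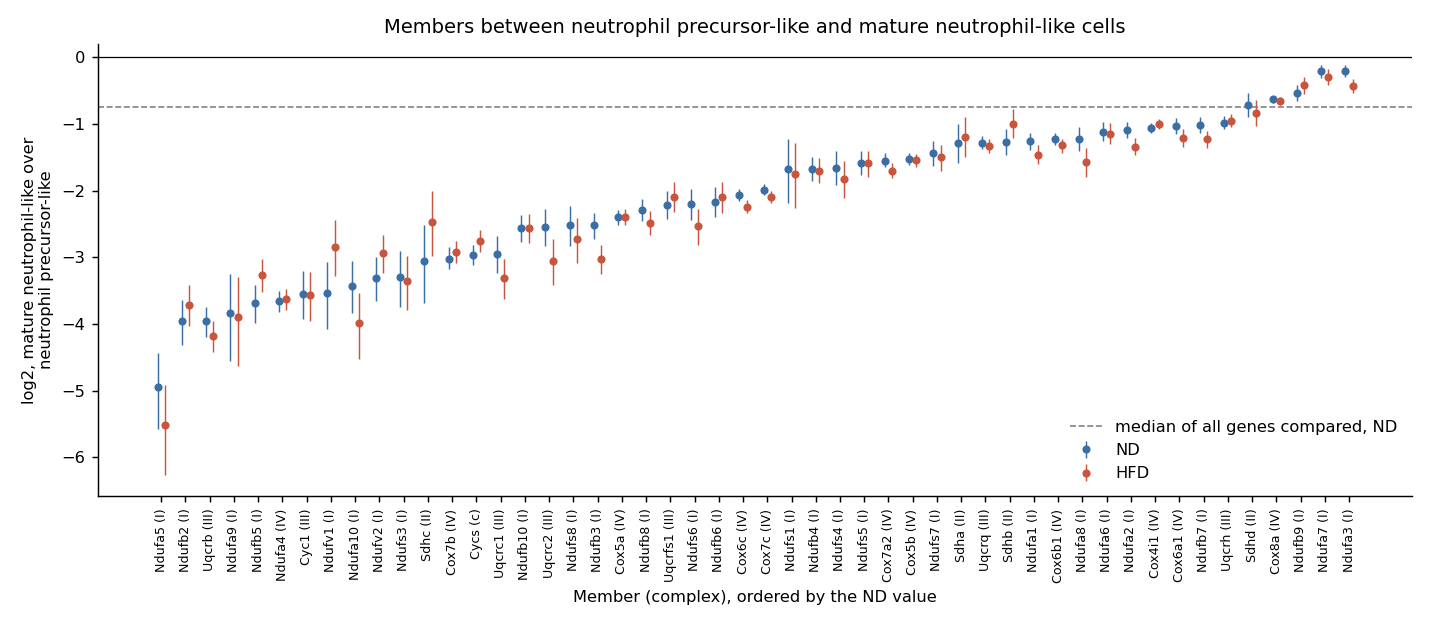
log2 ratio of mature neutrophil-like over neutrophil precursor-like cells for each member (complex in brackets, c for cytochrome c), with 95% counting intervals; ND is blue, HFD red and the dashed line is the median of all genes compared in ND (-0.75). Members run from -4.95 (Ndufa5) to -0.20 (Ndufa3) in ND, with both libraries in a similar order.

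The mt- mRNAs were lower as well between these classes, by 2.50 on the log2 scale in ND and 2.40 in HFD, more than the sum of the nuclear members (1.59 and 1.67). All 13 were lower in ND, from mt-Nd4 (-2.08) to mt-Nd6 (-3.21, 53 and 5 UMIs). Glycolysis differed by -0.33 in ND. The proliferation list stood at 1758 UPM in ND precursor-like and 57.82 UPM in ND mature cells, and its part in the difference was not tested. Depth differed strongly between the classes, with medians of 35362.5 and 3219 UMIs per cell. With all cells thinned to 1000 UMIs the difference of the summed members was -1.513. Thinning gives cells equal weight but leaves the expected share of UMIs in each cell unchanged, so the part of depth was not tested. Ribosomal protein genes took 26.0% of UMIs in precursor-like and 3.62% in mature cells, and without them and mt- genes in the denominator the difference was -1.99. The smaller difference between immature and mature cells was not stable in ND: -0.25 by summed UMIs, 0.014 after thinning and 0.01 as a mean over cells. In HFD it was -0.33 by summed UMIs. There the mature class stayed lower after thinning (5836 against 6183 UPM) and as a mean over cells (0.58% against 0.625%).

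Clusters inside these classes differed too. Among ND mature neutrophil-like cells, the 960 cells of the cluster led by Cstdc4 and Retnlg had 5163 UPM of members and the 541 cells led by Il1r2, Il1b and Acod1 had 7299. Among immature ones the level was 8773 UPM in 103 cells with many proliferation UMIs (2396 UPM of that list), 7094 in 207, 5492 in 361 and 5297 in 228 cells, and the last cluster held only 20 HFD cells.

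B lineage cells gave a second pair of precursor-like and mature classes with another pattern. All 50 members were lower in mature B cell-like than in B cell precursor-like cells in ND, where 58.4% of 6481 genes were lower, but none was 4-fold lower, against 4.61% of genes. The sum differed by -0.74 (-0.76 to -0.72) in ND and -0.67 in HFD. Ndufs5 (-1.47), Ndufa4 (-1.37) and Cox5a (-1.33) differed most, and Uqcrh (-0.27), Ndufa7 (-0.28) and Ndufa3 (-0.29) least. The mt- mRNAs lay the other way, by 0.27 in ND and 0.21 in HFD, and all 13 were higher in mature B cell-like cells in ND, from mt-Co1 (0.12) to mt-Nd6 (0.67, 0.12 to 1.28). Cycling moved with this difference: among ND precursor clusters, 117 cells with 4106 UPM of the proliferation list had 17700 UPM of members, whereas 202 cells with 147 UPM of that list had 11970, still above the 10130 UPM of the largest mature B cell-like cluster. Its part in the difference was not tested. After thinning the difference was -0.495. The largest mature B cell-like cluster (776 ND cells) had Ms4a1 and Cd79a among its 10 leading genes, but also Vpreb3, a fixed precursor marker. The class may thus hold B cells that are not fully mature. A cluster with Ighd, a fixed marker of the mature class, among its 10 leading genes (275 ND cells) had 8578 UPM of members.

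Macrophage-like against monocyte-like cells gave a smaller difference of the sum (-0.16 in ND and -0.23 in HFD). Cycs (-1.12 and -0.98), Ndufs4 (-1.12 and -1.11) and Ndufa3 (-1.07 and -0.95) were the lowest in macrophage-like cells relative to monocyte-like ones, and Ndufa5 was the highest (0.57 and 0.56). The mt- mRNAs were higher in macrophage-like cells, by 0.52 and 0.39.

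Mesenchymal-like and other stromal classes had their own balance. Complex I made up 39.2% of member UMIs in ND mesenchymal-like cells and 39.3% in HFD, 37.8% in endothelial-like and 36.7% in pericyte-like ND cells, but 31.8% to 35.4% in the other named ND classes. In mesenchymal-like cells Ndufb2, relative to the sum of members, stood 0.816 (log2) above its median over the classes of both libraries, Ndufs5 0.646 and Ndufs7 0.481. Uqcrfs1 stood at -0.724 and Cox5a at -0.703 on that scale. Cycs was also low there, at 131.7 UPM in ND and 115.0 in HFD, against 462.3 and 395.6 in monocyte-like cells. On the scale relative to the sum of members it stood at -0.582, its lowest class. By level, mature neutrophil-like cells had less, at 72.04 UPM in ND and 71.83 in HFD. In pericyte-like cells Sdhc (122 UPM in ND and 171 in HFD) and Ndufa5 (376 and 460) were highest, at 1.513 and 1.379 on the same scale, and next came erythroid-like cells, with 58.9 and 54.2 UPM of Sdhc and 237 and 246 UPM of Ndufa5. Within the mesenchymal-like class, the cluster led by Dcn and Prg4 (350 ND cells) had 10210 UPM of members and the cluster led by Col1a1, Bglap and Ibsp (59 ND cells) 10820.

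Tissue isoforms, which replace a general subunit in particular tissues, differed widely in level between classes. Cox6a2, known as the heart and muscle form, had 1454 UPM (681 UMIs in 43 cells; 1347 to 1568) in ND dendritic-like cells and 1772 (1109 UMIs in 57 cells) in HFD. Siglech, Bst2 and Ccr9, marks of plasmacytoid dendritic cells, led this cluster together with Cox6a2 itself, which was not kept out of the clustering, so the level is a description. The next class, B cell precursor-like, had 20.9 and 23.7 UPM. Cox6a1, the general form and a member, had 297 UPM in the same ND cells, less than Cox6a2. The 10 skeletal muscle fibre genes together had 49.1 UPM in these ND cells.

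Cox4i2, a form known from lung and vessel walls, had 222 UPM (174 to 280) in ND and 352 in HFD pericyte-like cells and at most 36.6 UPM in any other named class, where 256 UMIs came from 23 HFD mesenchymal-like cells. Ndufa4l2, a hypoxia-responsive relative of Ndufa4, was at 498 and 701 UPM in pericyte-like and at 125 and 171 in mesenchymal-like cells. Cox6b2, known from testis, had UMIs in all 15 named classes, though very few in some. Endothelial-like cells had 2 UMIs in ND and 1 in HFD, and mature neutrophil-like cells 5 and 3. Its highest ND levels were in erythroid-like (139 UPM) and neutrophil precursor-like cells (49.1 UPM, in 71.6% of cells). Mesenchymal-like ND cells had 24.3 UPM. Cox7a1 stood at 25.04 UPM in ND and 33.5 in HFD pericyte-like cells (8 and 19 UMIs) and at 25.2 and 11.4 in macrophage-like cells. Cox8c had no UMI in the 2 libraries, which allows up to 3 counts in each, and Cox7b2 had 1 UMI. Cox4i1, the general form of Cox4i2, stayed more abundant than Cox4i2 in ND pericyte-like cells, at 1045 UPM.

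**Figure D4:**
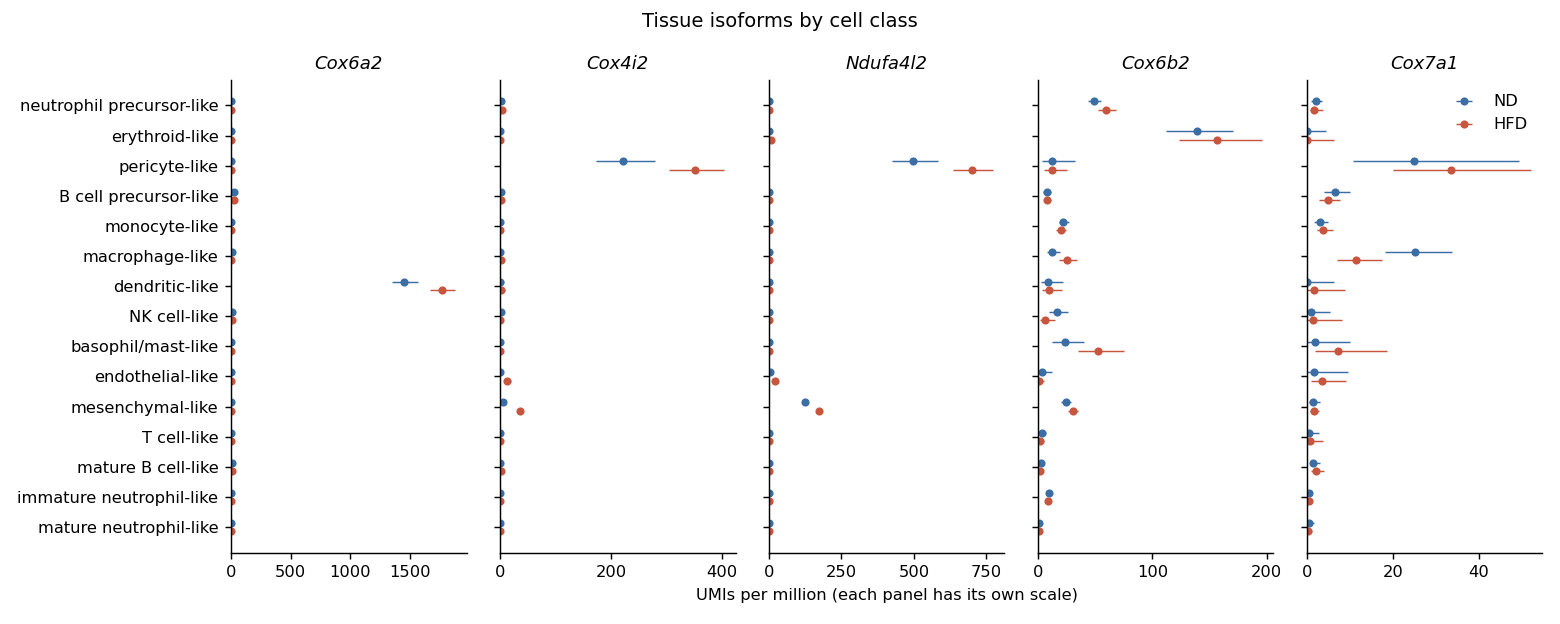
UPM of 5 tissue isoforms by cell class (each panel has its own scale), with 95% counting intervals; ND is blue and HFD red. Cox6a2 stands out in dendritic-like cells (1454 and 1772), and Cox4i2 and Ndufa4l2 in pericyte-like cells.

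Between diets the members were nearly level. Over all kept cells the sum was 11070 UPM in ND and 10930 in HFD, a log2 ratio of -0.018 (-0.024 to -0.013), and 24 of 50 members were higher in HFD, where 55.8% of 13161 genes compared were higher. None of the 50 passed a fold limit of 25% up or 20% down (the same factor in both directions), against 22.5% of genes. The genes compared, here and below, needed at least 100 UMIs and were not matched to the members for level. With every class given the same weight in both libraries the log2 ratio was 0.019. Complex I was at 0.01 (0.001 to 0.02), complex II at -0.006 (-0.041 to 0.028), complex III at -0.017 and complex IV at -0.031 (-0.039 to -0.023). The sign of the sum turned with the weight of cells: it was 0.065 after thinning and 0.047 as a mean over cells, so no direction can be given.

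The 409 ND and 674 HFD mesenchymal-like cells included the cluster led by Col1a1, Bglap and Ibsp. The class had 10270 and 10060 UPM, a log2 ratio of -0.031 (-0.047 to -0.014) that turned to 0.007 after thinning. There 19 of 50 members were higher in HFD, against 58.8% of 8957 genes, and none passed that limit, against 21.4%. In neutrophil-like cells (immature and mature) the levels were 6506 and 6476 UPM (-0.007, -0.019 to 0.006), with 21 of 50 members higher against 38.0% of 7683 genes, and 1 past the limit against 19.4%. The dissociation response list was lower in HFD by 0.992 on the log2 scale in these neutrophil-like cells (-1.607 in immature and -0.307 in mature cells). Hemoglobin UMIs were higher in HFD in immature (3.083) and lower in mature cells (-1.439), and the members stood at 0.008 (-0.007 to 0.022) and -0.068 (-0.091 to -0.044) in the same order, the former at -0.045 without the cluster of 228 ND and 20 HFD cells. The part of either list in these values was not tested.

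Cycs was the member with the largest ratio over all cells, at 268.7 UPM in ND and 231.3 in HFD (-0.216, -0.252 to -0.18). It was lower in HFD in erythroid-like cells (338.2 and 256.5 UPM; -0.396, -0.728 to -0.075, 27 HFD cells), monocyte-like cells (462.3 and 395.6 UPM; -0.225, -0.314 to -0.135), neutrophil precursor-like cells (560.9 and 483.1; -0.215), mesenchymal-like cells (-0.196, -0.348 to -0.043) and B cell precursor-like cells (-0.192), and higher in NK cell-like cells (0.459, 0.189 to 0.728). In mature neutrophil-like cells it did not differ beyond counting error (-0.004, -0.215 to 0.207). The erythroid-like ratio compared unlike mixtures, with 24 ND cells and 1 HFD cell in 1 of the clusters of that class. After thinning the ratio over all cells was -0.024. Sdhd (-0.12) was next on the lower side, and Ndufs1 (0.146, 0.019 to 0.273) and Sdhc (0.118) were the highest.

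Most related lists gave similar sizes over all cells. Of the genes compared, 6 of 10 other complex I subunits and 3 of 18 nuclear subunits of complex V were higher in HFD. So were 6 of 17 tricarboxylic acid cycle genes and 10 of 41 mitochondrial ribosome genes, against 55.8% of all 13161 genes compared. The sums of these lists stood, in the same order, at 0.009, -0.03, -0.029 and -0.046. The 16 genes of mitochondrial import and chaperones differed more, with 2 higher and a sum of -0.218 (-0.23 to -0.205). Their median was -0.059, and only 2 of the 16 passed the limit, against 22.5% of all genes compared. Of these, Hspe1, a mitochondrial heat shock chaperonin, had 470.0 UPM in ND and 283.1 in HFD. The tissue isoforms differed more still, at 60.86 UPM in ND and 96.62 in HFD (0.667, 0.6 to 0.734). Of 5 compared, 4 were higher in HFD and 3 passed the limit. Their sum stood at 0.632 (0.509 to 0.758) in mesenchymal-like and 0.535 (0.321 to 0.757) in pericyte-like cells. The mesenchymal-like value rested in part on few cells, since Cox4i2 had 22 UMIs in 11 ND cells and 256 in 23 HFD cells. Ndufa4l2 was found in 35.7% of ND and 31.45% of HFD mesenchymal-like cells, and Cox6b2 in 15.16% and 15.58%. The counting interval takes no account of UMIs that share a cell. The part of class makeup in the value over all cells was not tested.

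Pericyte-like cells, the cluster led by Tagln, Acta2 and Myh11, were the class with the largest ratio. This class was 1 of 8 clusters from the split of a mixed cluster of 579 cells, chosen after cluster markers had been seen. The members had 16750 UPM in 32 ND cells and 20690 in 60 HFD cells, a log2 ratio of 0.305 (0.258 to 0.352). Of 46 members compared 36 were higher in HFD, against 55.4% of 1317 genes, and 21 were at least 25% higher, against 19.2%. Cox7b had 231.6 and 385.7 UPM (0.729, 0.349 to 1.136), Ndufv2 153.4 and 244.8 (0.665), Uqcrc1 109.5 and 170.8 (0.628) and Ndufa2 413.2 and 618.2 (0.578). Cox8a, the most abundant, had 1559 and 2152 UPM. The nuclear genes of complex V were also higher (8263 and 10270 UPM), while glycolysis was not (4006 and 3868). The mt- mRNAs stood at 0.143 (0.108 to 0.178), with 11 of 12 compared higher in HFD. The quartile ranges of the cells overlapped, at 1.50% to 2.09% of UMIs in ND and 1.61% to 2.54% in HFD, and the median depth was 8428.5 and 8638 UMIs. The dissociation response list was lower in HFD (-0.352) and the proliferation list higher (1.098, 43 and 165 UMIs), and their part was not tested. With 1 library per diet, diet and library cannot be told apart.

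NK cell-like and T cell-like cells were higher in HFD by less. In NK cell-like cells the members had 11450 UPM in 186 ND cells and 12940 in 126 HFD cells (0.176, 0.137 to 0.216). There 38 of 44 members compared were higher, against 60.0% of 2271 genes, and 10 were at least 25% higher, against 19.7%. Ndufb8 led with 134.2 and 215.6 UPM (0.683, 0.341 to 1.028). In T cell-like cells the levels were 9553 and 10640 UPM (0.156, 0.126 to 0.187), 43 of 48 members were higher against 59.1% of 3380 genes, and 5 were at least 25% higher against 12.1%. The share past the limit was thus near or under the background in both, while the number merely higher was above it. Cluster makeup moved with the T cell-like value, since the cluster with the lower member level held 109 ND and 43 HFD cells, and without it the ratio was 0.119. The mt- mRNAs stood at -0.135 in NK cell-like and 0.014 in T cell-like cells, and the dissociation response list at -0.421 and -0.664, whose part was not tested.

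**Figure D5:**
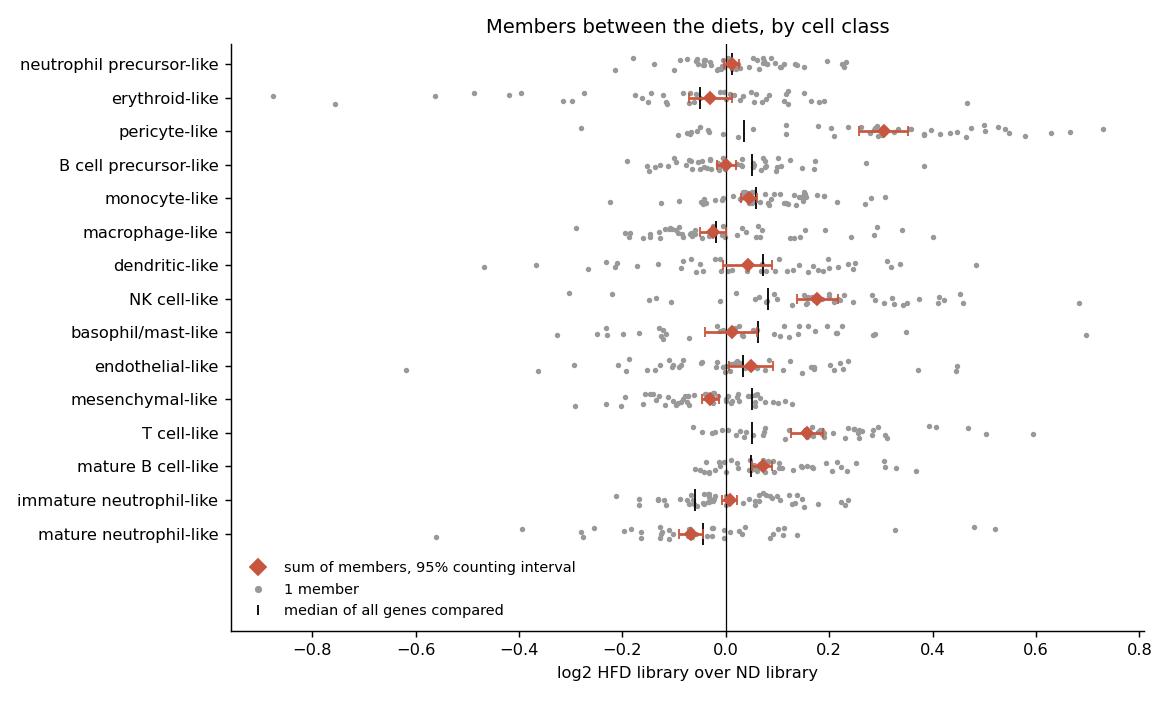
log2 ratio of the HFD over the ND library by cell class: diamonds are the sum of the 50 members with 95% counting intervals, grey points single members with at least 100 UMIs, and black ticks the median of all genes compared. The pericyte-like sum stands at 0.305, NK cell-like at 0.176 and T cell-like at 0.156, and the others lie between -0.068 and 0.071.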

How the data were processed

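The authors aligned and counted the reads with Cell Ranger 6.0.1 on mm10, per the labels' processing notes, and deposited whole-number UMI counts per gene and barcode for 2 pooled libraries, without normalization. The annotation release was not found in the labels or methods.

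Cells were filtered as the paper states, merged and clustered with Seurat 5.3.0 (R 4.3.3, sctransform 0.4.2): SCTransform on 3000 variable genes with S and G2M scores regressed, 30 principal components and Louvain clustering at resolution 0.5, leaving members and mt- genes out. A mixed cluster of 579 cells, the one with most Rgs5 UMIs, was split in a second round into 8 clusters. The pericyte-like class and part of the erythroid-like class came from this split. Clusters were named from fixed markers, needing 3 detected (at least 20 UMIs and 2-fold over the cluster median after adding 10 UPM). A cluster of low depth, or with a margin under 1 (log2) over another lineage, stayed unnamed. Both of these rules and the split were chosen once cluster markers had been looked at.

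Levels are summed UMIs per 1000000 UMIs (UPM) with exact Poisson intervals; ratios add 0.5 to each count and have exact binomial (Clopper-Pearson) intervals. A gene was compared with at least 100 UMIs over both groups. With 1 library per diet there is no test. Scrublet (scanpy 1.11.5) called 9 ND and 23 HFD doublets (0.149% and 0.370%), too few to have worked, so they were kept and the 5% of cells with the highest scores were left out as an alternative. Ratios were tested on simulated data. Python 3.11.15, numpy 2.4.6, scipy 1.17.1 and pandas 2.3.3 were used.

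All 50 members, the 13 mt- mRNAs and the tissue isoforms could be named, with at most 2 genes of the highest level or ratio in other lists and the 10 most similar genes; genes named as marks of a cluster fall outside this rule. The members and the lists were chosen with earlier results of these data known. Processed pseudogenes of several members may take reads, and reads without a unique gene are not counted. Alternatives covered cell filters, doublets, depth, denominators, weights of cells, clustering and gene limits.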

Additional observations from a re-analysis of the deposited data

How the results depend on the processing

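The values below are log2 ratios of HFD over ND of the summed members unless another quantity is named. Over all kept cells (-0.018) the ratio was 0.065 with cells thinned to 1000 UMIs and 0.047 as a mean over cells, both of the opposite sign, -0.038 without mt- and ribosomal protein genes in the denominator, -0.009 without the 5% highest doublet scores and -0.04 without the 4 clusters that drew over 70% of their cells from 1 library. With equal class weights (0.019) the sign turned at cluster resolution 0.25 (-0.002), and the value was 0.051 thinned, 0.025 without mt- and ribosomal protein genes, 0.031 as a mean over cells, 0.005 without one-sided clusters and 0.013 with clusters weighted in place of classes. In the mesenchymal lineage and in mesenchymal-like cells, which are the same cells, thinning turned -0.031 to 0.007. In neutrophil-like cells (-0.007) the values were 0.01 without the highest doublet scores, -0.021 as a mean over cells and -0.034 without one-sided clusters. The mt- mRNAs (-0.012) were at 0.006 under 10% mitochondrial UMIs, -0.042 thinned, -0.054 as a mean over cells and -0.047 without one-sided clusters. The highest over the lowest class in ND (1.589) was 1.631 without the highest doublet scores, 1.99 without mt- and ribosomal protein genes, 1.499 as a mean over cells and 1.614 at resolution 1.0.

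Other ratios of the opposite sign were complex I (-0.009 without mt- and ribosomal protein genes and -0.009 without one-sided clusters), complex III (0.086 thinned and 0.061 as a mean over cells), complex IV (0.051 and 0.034 in the same order), endothelial-like cells (-0.014 as a mean over cells), monocyte-like cells (-5.4e-05 without one-sided clusters) and mature over immature neutrophil-like cells in ND (0.014 thinned and 0.01 as a mean over cells). The cause of these changes was not tested. The pericyte-like ratio ranged from 0.241 to 0.314 over all alternatives run. Leaving out the highest doublet scores or the one-sided clusters and weighting clusters equally were chosen after seeing the data. No paired analysis was possible because the barcodes carry no mouse, and with 1 library per diet no replicate could be left out.

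Limits. Counting intervals leave out variation between mice and between digests. Classes with few cells, pericyte-like (32 ND cells) and erythroid-like (27 HFD cells) among them, rest on few molecules per member, and members with fewer than 100 UMIs over both libraries were not compared there. A higher share of UMIs in 1 gene group lowers all others, and 3′ counts do not measure protein, assembled complexes or respiration.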

Other observations

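Among the clusters left unnamed, 70 ND and 42 HFD cells led by Gm26917, Prg2 and Top2a had 5303 and 5968 UPM of members beside a median of 10.66% and 8.67% mitochondrial UMIs per cell. A second unnamed cluster of 56 ND and 38 HFD cells, led by Iglc2, Jchain and Igkc and of low depth, had 4788 and 4880 UPM beside 6.95% and 6.34%. Both lay below every named class in ND. Another unnamed cluster, of 42 ND and 47 HFD cells led by Car1, Ctla2a and Pf4, had 17310 and 16290 UPM.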
